A study of Mus musculus with 4 samples.

Results

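The venous and activated endothelial genes are a group of 10 mouse genes, chosen by symbol from the 24873 genes listed in RNA-Seq data of cerebral endothelial cells (ECs). All 10 were listed. Nr2f2 and Ephb4 mark venous identity. Vwf, Slc38a5, Il1r1 and Ackr1 are enriched in veins and venules, and Vcam1, Icam1, Selp and Sele encode adhesion molecules that hold leukocytes. The members were found by symbol, and the group was proposed with earlier results of these data known.

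The data came from 2 control and 2 tamoxifen libraries of Cdh5cre;Mgpflox/flox mice, each library made from cells pooled from 3 mice and collected on day 9. In these mice the VE-cadherin (Cdh5) promoter drives a recombinase that tamoxifen activates, and Mgp, which encodes an inhibitor of bone morphogenetic proteins, is flanked by its target sites. Both groups carried these alleles. Treatment was tamoxifen at 75 mg/kg each day over 5 days, begun at an age of 10 weeks, and the control mice were given none, so the effect of the drug and that of the deletion cannot be told apart. The study describes the cells as sorted for CD31 and against the leukocyte antigen CD45, a gate that would remove most leukocytes and other cells without CD31, whereas the labels describe them by a tdTomato reporter.

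A vein keeps its identity in part through the nuclear receptor COUP-TFII, the product of Nr2f2, and carries the receptor EphB4, which meets the arterial ligand ephrin-B2 where arteries and veins border. Leukocytes leave the blood mainly through venules. P-selectin and E-selectin (Selp and Sele) let them roll, and VCAM-1 and ICAM-1 (Vcam1 and Icam1) then hold them through integrins, while ACKR1 moves chemokines across the venular wall. Cytokines such as IL-1, sensed through IL1R1, raise several of these molecules by way of NF-kB. Brain endothelium at rest holds little of the selectins.

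The genes lie on several chromosomes. In GRCm39, the build of the reads, with GENCODE M39, Sele occupies chromosome 1 from 163867401 to 163886055 on the plus strand and Selp, its neighbor, occupies 163942833 to 163977595 on the same strand. Icam1 spans chromosome 9 from 20926672 to 20940113, and Vcam1 spans chromosome 3 from 115903598 to 115923355. Vwf covers chromosome 6 from 125523737 to 125663642. The deposited values are given per gene, and the study describes reads counted per transcript during the alignment.

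The 250 bases before the RefSeq start of 3 adhesion genes are given because cytokines are known to raise these genes, of which Icam1 was called lower here and the other two were not called. The sequences are from the RefSeq table for GRCm38.p6, which matched 8 of the 10 members by symbol, all but Vcam1 and Vwf, and they run 5′ to 3′ on the plus strand. The windows are chr9:21015690-21015939 for Icam1, chr1:164047984-164048233 for Sele and chr1:164115014-164115263 for Selp. Capitals mark the letters TATAAA and TGANTCA in either orientation. The latter allows any base at N and so takes in the AP-1 site TGACTCA along with other strings.
Icam1: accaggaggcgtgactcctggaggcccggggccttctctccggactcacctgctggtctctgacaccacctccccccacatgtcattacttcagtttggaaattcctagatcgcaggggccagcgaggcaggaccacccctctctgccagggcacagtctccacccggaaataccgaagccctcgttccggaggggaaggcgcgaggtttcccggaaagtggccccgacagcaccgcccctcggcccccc
Sele: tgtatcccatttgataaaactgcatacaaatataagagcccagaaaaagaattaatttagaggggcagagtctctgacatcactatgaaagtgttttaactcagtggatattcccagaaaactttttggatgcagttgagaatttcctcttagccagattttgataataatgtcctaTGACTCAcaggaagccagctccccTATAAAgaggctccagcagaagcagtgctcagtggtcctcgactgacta
Selp: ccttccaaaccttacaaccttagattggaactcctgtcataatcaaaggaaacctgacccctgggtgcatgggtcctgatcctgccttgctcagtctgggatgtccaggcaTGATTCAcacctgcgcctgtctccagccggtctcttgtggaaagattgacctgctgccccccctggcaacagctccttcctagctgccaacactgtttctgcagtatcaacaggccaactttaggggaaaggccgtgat

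Both selectin windows held TGANTCA, as the AP-1 site TGACTCA in Sele and as TGATTCA in Selp. In Sele the match began 73 bases before the start and was followed by TATAAA at 49 bases, and in Selp it began 139 bases before the start. The Icam1 window held neither motif. Of all 32851 windows of this length in the table, 6.75% held TGANTCA and 12.4% held TATAAA on either strand. The strict NF-kB consensus GGGRNNYYCC (R is A or G, Y is C or T, N is any base) was in 7.25% of all windows. Of the 8 members with a window, only Il1r1 held it, in 1 of its windows. Neither selectin nor Icam1 held this exact form. Forms of the site that differ from this string were not searched, so these windows are not shown to lack NF-kB sites. The letters GATA occurred in 5 of these 8 members and in 53.6% of all windows. The core ETS letters GGAA were in all 8 and in 93.4% of all windows. These are matches of letters within a window and were not tested as sites.

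Reads on genes numbered from 35387438 to 49799321 per library. The values are normalized counts, which are reads divided by 1 factor per library, and 3 reads, the floor used here, correspond to between 2.16 and 4.11 normalized counts. Fold changes are differences of log2(normalized count + 1), tamoxifen minus control, and understate changes where reads are few. Tests with limma covered the 20485 genes whose mean reached 10 normalized counts. A gene was called at a Benjamini-Hochberg adjusted p under 0.05 with an absolute log2 fold change over 1. With 2 libraries in each group 0.333 is the smallest p that an exact permutation test of 1 gene allows, and the adjusted p-values rest on a spread that limma shares across genes. They measure the spread between pools of mice. Mgp had 1094 and 1352 normalized counts in the controls and 945 and 909 after tamoxifen, a log2 fold change of -0.39 (SE 0.18, adjusted p = 0.0986), which was 0.08 with the libraries rescaled to equal totals. Which exons are deleted is not given in the sources used here.

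Endothelial RNA as a whole was lower after tamoxifen. All 12 pan-endothelial genes fell, with a median log2 fold change of -2.94 and a range from -3.33 for Flt1 to -2.75 for Kdr, both receptors for VEGF. Their summed level was 1158310 and 1172280 normalized counts in the controls, 203464 in tamoxifen library 1 and 102608 in tamoxifen library 2. On the deposited scaling the tamoxifen libraries thus held 7.61-fold less of these transcripts, and the first held 1.98 times as much as the second. Both ratios depend on this scaling, since total normalized counts were 51330900 and 51346700 in the controls and 38352700 and 35800600 after tamoxifen. In bulk samples, fewer cells of a type and less RNA per cell cannot be told apart. Each member was therefore compared in a pair of fits, one on normalized counts and one on the log2 level minus the library's mean log2 level of the 12 genes, called the relative fit below. The subtraction puts the same shift into every gene, with a gap of 0.9985 between the 2 tamoxifen libraries. The relative fit then took its spread almost wholly from all genes together and hardly from the gene itself. Its SEs, intervals and p-values are therefore less secure than those on normalized counts.

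Of the 10 members, 5 were called lower and 1 higher. The 5 were Vwf, Slc38a5, Il1r1, Ephb4 and Icam1, and the 1 was Vcam1. Over all genes tested, 16% were called lower and 28.6% higher. The members' median log2 fold change was -0.75, against 0.05 for all genes. Nr2f2, Ackr1, Selp and Sele were not called. Within the group the fold changes covered the range from -2.81 to 2.12, so the members did not move as a block. The groups did not overlap for 8 members, 6 of them lower after tamoxifen and 2 higher, against 39.2% and 43.1% of all genes tested.

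**Figure D1:**
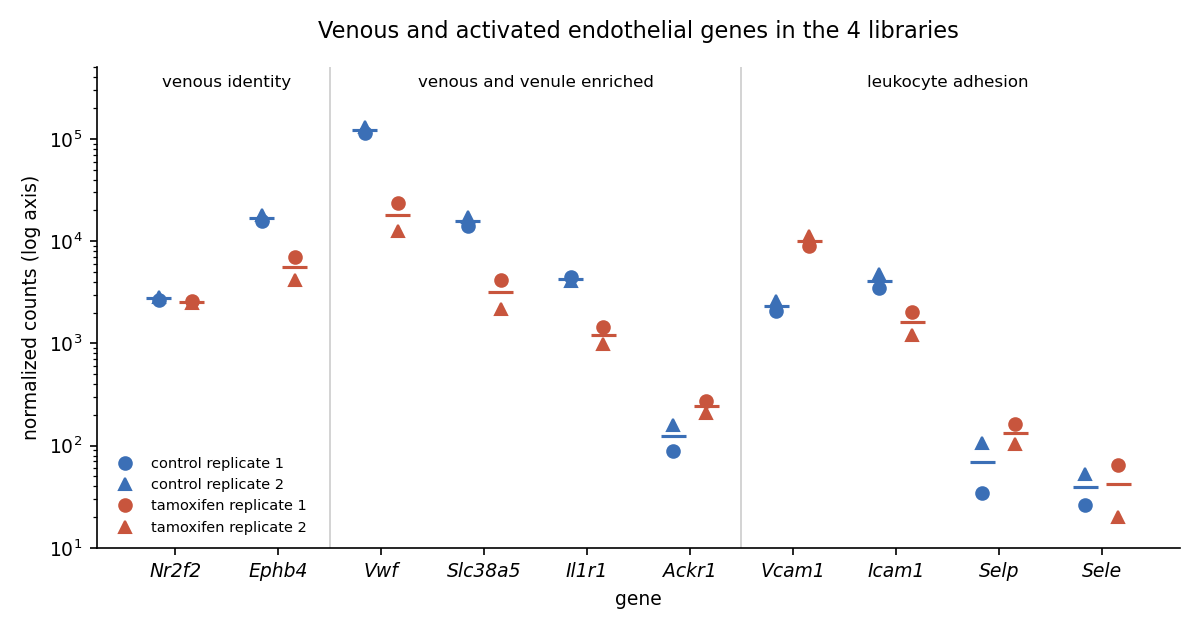
Normalized counts on a log axis for the 10 genes in the 2 control (blue) and 2 tamoxifen (red) libraries, with circles for replicate 1, triangles for replicate 2 and bars for group means. Vwf, Slc38a5, Il1r1, Ephb4 and Icam1 lie lower in both tamoxifen libraries, Vcam1 lies higher in both, and Selp and Sele overlap.

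The venous identity genes parted from each other. Nr2f2 had 2635 and 2867 normalized counts in the controls and 2609 and 2465 after tamoxifen. The tamoxifen values lay just under the control values, and the log2 fold change was -0.12 (95% interval -0.46 to 0.23, adjusted p = 0.525). Its sign depended on the scaling, with 0.35 under equal totals and 0.02 under quantile normalization. This interval leaves out a fall of the size seen for the pan-endothelial genes. Nr2f2 is also made by interneurons, whose 7 marker genes summed to between 196 and 210.3 normalized counts in the controls and to 3068 and 6804 after tamoxifen. The part of these or of other cells outside the endothelium in the level of Nr2f2 was not tested. On the other strand Nr2f2 overlaps the noncoding B130024G19Rik, which had 95.9 and 141 normalized counts in the controls and 113 and 179 after tamoxifen. The library kit was a stranded one, but the strand setting of the counting is not given in the sources used here, and whether reads of such pairs were separated is not known.

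Ephb4, the venous receptor, fell. It had 15686 and 18209 normalized counts in the controls against 6980 and 4191 after tamoxifen, with no overlap. This is 33.0% of the control mean, a log2 fold change of -1.64 (SE 0.25, adjusted p = 9.8e-04). In the relative fit, Nr2f2 was higher by 2.87 (SE 0.58, adjusted p = 1.5e-06) and Ephb4 by 1.34 (SE 0.49, adjusted p = 0.0083). The relative call of Nr2f2 was lost without either control library (adjusted p up to 0.0716), and that of Ephb4 was lost in 4 of 14 alternatives (adjusted p up to 0.315). Most genes were higher on this scale, since 87.1% of all genes tested were called higher in the relative fit and their median was 3.04.

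Vwf, which encodes the von Willebrand factor stored in Weibel-Palade bodies, showed the largest fall among the members. It had 113256 and 129773 normalized counts in the controls, 23800 in tamoxifen library 1 and 12469 in tamoxifen library 2. The groups were far apart, at a log2 fold change of -2.81 (SE 0.35, adjusted p = 3.3e-04). The tamoxifen mean was 14.9% of the control mean. Vwf therefore moved nearly as the pan-endothelial genes did. Its log2 level above their mean was 0.61 and 0.75 in the controls and 0.82 and 0.89 after tamoxifen, and the relative difference was 0.17 (95% interval -0.64 to 0.98, adjusted p = 0.693). Megakaryocytes and platelets also make von Willebrand factor, and the summed level of 8 of their markers was 410 and 722 normalized counts in the controls and 3595 and 2786 after tamoxifen. Their part in the level of Vwf was not tested.

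Slc38a5, an amino acid transporter of brain vessels, fell to a similar extent. Its values were 14190 and 17280 normalized counts in the controls and 4121 and 2169 after tamoxifen, with a log2 fold change of -2.39 (SE 0.29, adjusted p = 3.1e-04). The relative difference was 0.60 (95% interval -0.41 to 1.60, adjusted p = 0.262). For Vwf and Slc38a5 the relative fit thus showed no difference that passed the test, and its intervals reach 0.98 and 1.60.

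Il1r1, the signaling receptor for IL-1, had 4460 and 4028 normalized counts in the controls and 1456 and 986 after tamoxifen. The tamoxifen mean was 28.8% of the control mean, with a log2 fold change of -1.82 (SE 0.21, adjusted p = 2.3e-04). The relative difference was 1.16 (95% interval 0.01 to 2.31, adjusted p = 0.0547). It passed the test in 3 of 14 alternatives, with Pecam1 alone (1.03, adjusted p = 0.0394) or the list's median (1.03, adjusted p = 0.0432) as the reference and without tamoxifen library 1 (1.38, adjusted p = 3.9e-04). Over the 14 alternatives its adjusted p reached 0.499.

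Ackr1, the atypical chemokine receptor of venules, was the member of this subgroup that did not fall. It had 87.7 and 160.2 normalized counts in the controls and 274 and 209 after tamoxifen. Both tamoxifen values were higher, but the log2 fold change of 1.01 (95% interval 0.08 to 1.93) did not pass the test (adjusted p = 0.06), and it was -0.21 under quantile normalization. Without control library 2 it was 1.44 (adjusted p = 0.0074) and under equal totals 1.48 (adjusted p = 0.0176), both past the thresholds. Relative to the pan-endothelial genes Ackr1 was higher by 3.99 (SE 0.80). Ackr1 is also a red cell antigen, and the 9 erythroid markers rose from sums of 18712 and 38046 normalized counts in the controls to 178572 and 116193 after tamoxifen. On the same strand, 493 bases of Ackr1 are shared with Cadm3, a cell adhesion gene with 57.5 and 115 normalized counts in the controls and 648 and 2047 after tamoxifen. The part of either in the level of Ackr1 was not tested.

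Among the adhesion genes, Vcam1 rose and Icam1 fell. Vcam1 had 2050 and 2588 normalized counts in the controls and 9058 and 11136 after tamoxifen. The groups were well apart and the tamoxifen mean was 4.35 times the control mean, with a log2 fold change of 2.12 (SE 0.19, adjusted p = 8.3e-05). The rise was kept under every alternative tried, from 1.96 to 2.59. Vcam1 was also the only member for which the tamoxifen library with less endothelial RNA, library 2, had the higher value. In the relative fit it was higher by 5.11 (95% interval 4.06 to 6.16).

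Vcam1 is made by fibroblasts, macrophages and mural cells as well as by activated endothelium. The CD31+CD45- gate that the study describes is meant to remove most of these other cells, whereas the labels name a tdTomato reporter. Over all genes tested, 28.6% were called higher. All 8 fibroblast markers were, with sums of 2448 and 3397 normalized counts in the controls and 71242 and 61409 after tamoxifen. Of 10 macrophage and microglia markers 6 were called higher, with sums of 2666 and 4066 normalized counts against 7009 and 5868. The 9 pericyte and smooth muscle markers summed to 33341 and 62435 normalized counts in the controls and to 42713 and 85320 after tamoxifen. Of these 1 was called higher, between 0 and 5 across alternatives. Of the macrophage and microglia markers 1 was called when either tamoxifen library was left out. What part these cells have in the level of Vcam1 was not tested.

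Icam1 had 3490 and 4721 normalized counts in the controls and 2020 and 1214 after tamoxifen. Both tamoxifen values lay below both control values, with a log2 fold change of -1.37 (SE 0.26, adjusted p = 0.0029). The call was lost without tamoxifen library 2 (-1.01, adjusted p = 0.0986) and under equal totals, where the log2 fold change was -0.90. Relative to the pan-endothelial genes Icam1 was higher by 1.61 (SE 0.58, adjusted p = 0.0069), a call lost without either control library (adjusted p up to 0.342).

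The selectins were low in all 4 libraries. Selp had 34.2 and 105 normalized counts in the controls, from 25 and 84 reads, and 161 and 104 after tamoxifen, from 149 and 144 reads. The groups overlapped, with a log2 fold change of 1.09 (95% interval -0.29 to 2.47, adjusted p = 0.149) that became -0.02 under quantile normalization and 1.89 (adjusted p = 0.0059) without control library 2. P-selectin is also a platelet protein, and the sums of platelet markers given beside Vwf were higher after tamoxifen. Their part in the level of Selp was not tested.

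Sele had 26.0 and 52.6 normalized counts in the controls and 63.9 and 20.1 after tamoxifen. These rest on between 19 and 59 reads, and the tamoxifen values lay on either side of the control values. The log2 fold change was -0.04 (95% interval -1.67 to 1.59, adjusted p = 0.967), an interval too wide to show a direction at this depth. Its sign was positive in 5 of 14 alternatives. An antisense noncoding gene, Gm57120, covers Sele and had 0 and 1.25 normalized counts in the controls and 5.42 and 14.4 after tamoxifen.

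**Figure D2:**
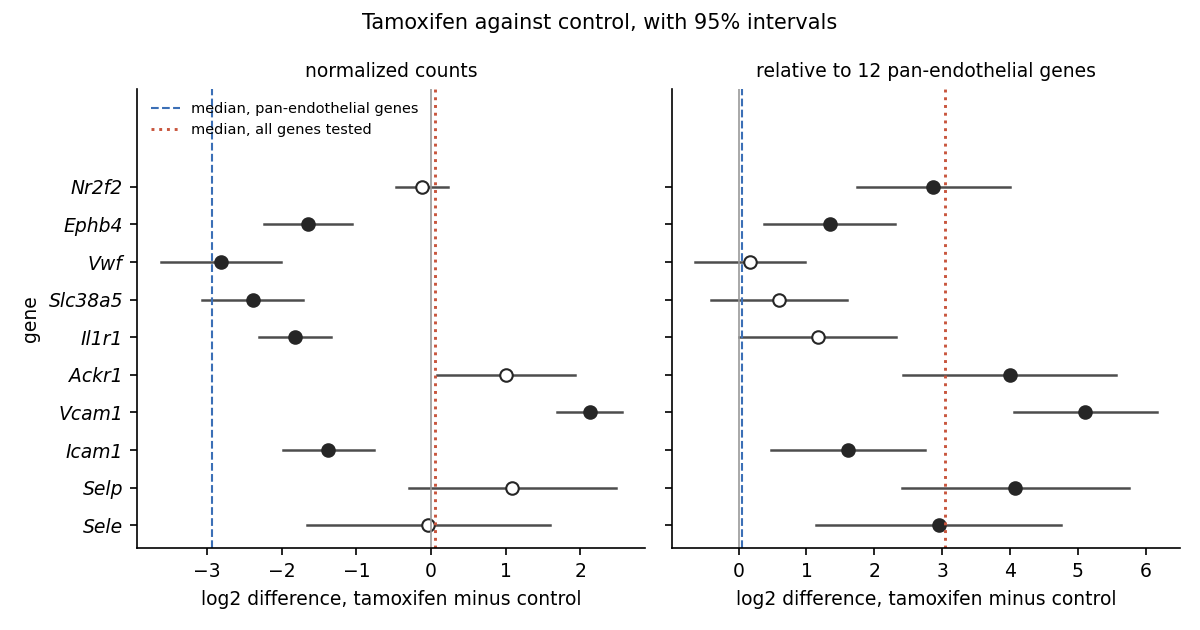
Log2 differences (points, filled where called) with 95% intervals (lines) for the 10 genes, on normalized counts at left and relative to 12 pan-endothelial genes at right, with the medians of the pan-endothelial genes (dashed) and of all genes tested (dotted). At right Vwf and Slc38a5 lie nearest to 0, and all 10 points are above it.

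In the relative fit, 7 of the 10 members were called higher and 0 lower, against 87.1% of all genes tested higher and 0.0781% lower. All but Vwf, Slc38a5 and Il1r1 were called. The members' median relative difference was 2.24, against 3.04 for all genes. Without control library 1 only 2 members were called and without control library 2 only 3.

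The pair of tamoxifen libraries separated the members further. Tamoxifen library 1 held 1.98 times the pan-endothelial RNA of library 2. For Vwf the ratio of library 1 to library 2 was 1.91 and for Slc38a5 1.90, close to that of the pan-endothelial sum. Ephb4 (1.67), Icam1 (1.66), Il1r1 (1.48) and Ackr1 (1.31) lay lower. Nr2f2 was nearly equal in the 2 libraries at 1.06, and Vcam1 was at 0.81. The ratio for Sele was 3.18 and for Selp 1.56, on few reads in Sele. These ratios come from 1 pair of libraries and have no test.

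Levels were compared between genes as normalized counts per kilobase of the canonical transcript. In the control libraries Vwf was highest, at 12820 and 14690 per kilobase, followed without overlap by Slc38a5 (7113 and 8661), Ephb4 (3600 and 4179) and Icam1 (1110 and 1502). Il1r1, Vcam1 and Nr2f2 came next with overlapping values, means between 652 and 721 per kilobase. Ackr1 was lower, with a mean of 107, and Selp and Sele were lowest and overlapped. In the tamoxifen libraries the order began with Vcam1, at 2604 and 3201 per kilobase, whose range overlapped that of Vwf (2694 and 1412). By group means Vcam1 was in the sixth place in the controls and in the first after tamoxifen, although it overlapped its neighbors in both orders. The selectins kept the last places.

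The binding partners of the members were read next. Of 15 partners fixed as a list, 14 were listed and tested, and 8 of these rose while none was called lower, against 28.6% and 16% of all genes tested. The 8 became 4 when either tamoxifen library was left out and 5 with only genes of a mean of at least 100. Their median log2 fold change was 2.73. The 8 that rose were Itgb2, Itgal, Itgam, Selplg, Cd44, Il1b, Il1rn and Il1r2. Of these, Il1b, Il1rn and Il1r2 had control means of 7.75, 1.25 and 0.68 normalized counts. They passed the filter at a mean of 10 only through the tamoxifen libraries and could hardly have been called lower. Itgb2, the beta chain of the integrins that bind ICAM-1, had 60.3 and 78.9 normalized counts in the controls and 2217 and 1645 after tamoxifen (log2 fold change 4.77, SE 0.28, adjusted p = 1.5e-05). Its alpha chains Itgal and Itgam rose by 3.25 and 3.23 on the log2 scale.

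Selplg, the leukocyte ligand of the selectins, had 136 and 243 normalized counts in the controls and 1104 and 766 after tamoxifen. Cd44, another ligand of E-selectin, had 58.9 and 51.3 against 6425 and 4571, the largest rise of the list at 6.60 (SE 0.24, adjusted p = 3.8e-06). CD44 is made by many cell types. Glg1, an E-selectin ligand of broad expression, had 15167 and 15599 normalized counts in the controls and 14953 and 13829 after tamoxifen, with a log2 fold change of -0.10 (95% interval -0.51 to 0.32) that was 0.56 under quantile normalization.

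Itga4 and Itgb1, the integrin chains that bind VCAM-1, had lower values without reaching the size limit. Itga4 had 8317 and 5830 normalized counts against 3630 and 3556 (log2 fold change -0.95, adjusted p = 0.0042), and Itgb1 had 42181 and 38734 against 24132 and 20370.0 (-0.87, adjusted p = 0.0121). Efnb2, the arterial ligand of EphB4, had 5939 and 4665 normalized counts against 3067 and 3068. Its log2 fold change was -0.78 (SE 0.17, adjusted p = 0.0055), beside -1.64 for Ephb4. Whether the pair differ was not tested.

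On the IL-1 side, the receptor's accessory chain Il1rap had 667 and 595 normalized counts in the controls and 660 and 577 after tamoxifen, a log2 fold change of -0.03 (95% interval -0.50 to 0.44) that was 0.44 under equal totals. The decoy receptor Il1r2 had 1.37 and 0 normalized counts in the controls, from 1 and 0 reads, and 168 and 120 after tamoxifen. Il1rn, the IL-1 receptor antagonist, had 0 and 2.50 against 150 and 101. Il1b, a ligand, had 5.48 and 10.01 against 95.4 and 54.6 (adjusted p = 0.0032), whereas the ligand Il1a was low throughout, between 7.59 and 32.9. On normalized counts Il1r1, the signaling receptor, was thus lower, and Il1r2 and Il1rn, which oppose it, were higher. The control values of Il1r2 and Il1rn rest on 0 to 2 reads. In the relative fit the differences were all positive, at 1.16 for Il1r1 (not called), 9.52 for Il1r2 and 9.03 for Il1rn. On that scale 87.1% of all genes tested were called higher. The calls of Il1b, Il1rn, Selplg and Itgam were lost when either tamoxifen library was left out, with adjusted p from 0.0574 for Il1b and 0.0574 for Il1rn to 0.0953 for Itgam. Neutrophils make Il1r2, Il1rn, Selplg, Itgam and Itgb2. All 10 neutrophil markers were called higher, against 28.6% of all genes tested. Their sums went from 308 and 248 normalized counts in the controls to 113408 and 84507 after tamoxifen. The gate against CD45 that the study describes is meant to remove most leukocytes, whereas the labels name a tdTomato reporter. The part of neutrophils in the partners was not tested.

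The genes of IL-1 and NF-kB signaling were lower as a list, which also holds the TNF receptors Tnfrsf1a and Tnfrsf1b and the factors Nfkb2 and Relb. Of 13 genes, 8 were called lower and 0 higher, against 16% and 28.6% of all genes tested, with a median log2 fold change of -1.13. For all 13 the tamoxifen values lay below the control values, as for 39.2% of all genes tested. Nfkbia, the inhibitor that NF-kB itself induces, had 19120 and 19079 normalized counts in the controls and 4180 and 2334 after tamoxifen (log2 fold change -2.61, SE 0.26, adjusted p = 1.4e-04). Nfkb1, which encodes the p50 subunit, fell by 1.22 on the log2 scale. Under equal totals 4 were called lower. In the relative fit 11 of the 13 were called higher, against 87.1% of all genes.

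Genes that cytokines induce in endothelium moved in both directions. Of 12 listed genes 10 were tested, of which 4 rose and 3 fell, against 28.6% and 16% of all genes tested, with a median log2 fold change of 0.21 against 0.05. Among the 4 that rose, Il6 had 0 reads in both controls and passed the filter only through the tamoxifen libraries. Those called lower were 5 under quantile normalization and 1 without tamoxifen library 2. Ccl2, a monocyte chemokine, rose most, from 21.9 and 17.5 normalized counts to 976 and 727 (log2 fold change 5.36, SE 0.37). Cx3cl1, a chemokine anchored to the endothelial surface, fell most, from 6367 and 8989 normalized counts to 2047 and 1358 (-2.18, SE 0.24). Irf1, an interferon-response factor, had 3860 and 4752 normalized counts against 2056 and 1285. Of the 8 Weibel-Palade body genes other than Vwf and Selp, 3 fell and 1 rose, against the same shares. Angpt2, a Tie2 ligand kept in these bodies, fell by 2.72 on the log2 scale, and Igfbp7 and Ecm1 fell by 2.30 and 1.14. The 1 that rose was Cd63, a tetraspanin of secretory and lysosomal membranes in many cells, with 337 and 468 normalized counts against 5520 and 5723.

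**Figure D3:**
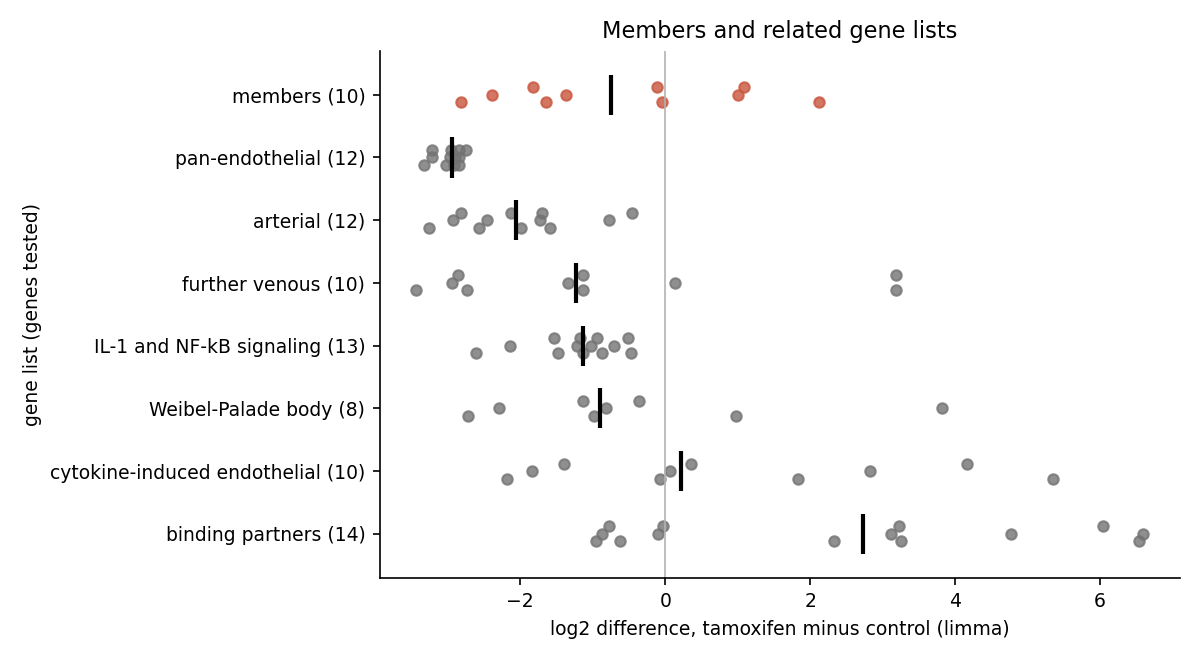
Log2 differences, tamoxifen minus control, of the 10 members (red) and of the genes of 7 related lists (gray), with black bars at list medians and the number of genes tested in parentheses. Pan-endothelial genes lie between -3.33 and -2.75, whereas the members spread from -2.81 to 2.12.

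A further 10 venous genes moved in both directions too. Of these, 7 fell and 2 rose, against 16% and 28.6% of all genes tested, with a median log2 fold change of -1.24 and a range from -3.43 to 3.18. Under equal totals 4 fell, and 1 rose when either tamoxifen library was left out. Emcn, a sialomucin of veins and capillaries, had 35556 and 35404 normalized counts in the controls and 4280 and 2515 after tamoxifen, the largest fall. Flt4, the receptor for VEGF-C, fell by 2.86 on the log2 scale. Nr2f1, the relative of Nr2f2, had 127 and 156 normalized counts against 1000.3 and 1664, a rise of 3.18 (SE 0.30, adjusted p = 1.1e-04). Its higher value was in tamoxifen library 2, which held less endothelial RNA, and the cells that gave its rise were not tested. The other venous gene that rose was Lcn2, chosen after its value was seen, which is also a neutrophil granule gene, with 419 and 986 against 6860 and 4965 normalized counts.

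Arterial genes served as the contrast to venous ones. Of 12, 10 were called lower and 0 higher, against 16% and 28.6% of all genes tested, with a median log2 fold change of -2.06 against -1.24 for the further venous genes and -0.75 for the members. Nrp1, a coreceptor for VEGF and semaphorins, fell by 2.45, and Notch4, an endothelial Notch receptor, fell by 2.57 on the log2 scale. Sema3g fell most, by 3.26. The lists differ in expression and in their share of non-endothelial genes, and the difference between arterial and venous lists was not tested.

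Markers of other cell types were higher after tamoxifen beside these results. All listed and tested markers of neutrophils (10), erythroid cells (9), megakaryocytes and platelets (8), fibroblasts (8), astrocytes (7), interneurons (6) and pluripotency (8) were called higher, against 28.6% of all genes tested. Some of them, such as Mpo, Elane, Nanog and Sall4, had control means under 10 normalized counts. Such markers passed the filter only through the tamoxifen libraries and could hardly have been called lower. With either tamoxifen library left out, 4 erythroid and 0 platelet markers were called, and without tamoxifen library 2 there were 3 astrocyte markers. Astrocyte markers summed to 28926 and 34330 normalized counts in the controls and to 149143 and 310356 after tamoxifen. In both tamoxifen libraries 1 interneuron marker, too low to be tested, was without a read, and 1 neutrophil and 1 fibroblast marker were without a read in both control libraries. Control library 2 had higher sums than control library 1 for all of these lists but neutrophils, and for pericytes and macrophages. It also had higher values for all members but Il1r1.

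**Figure D4:**
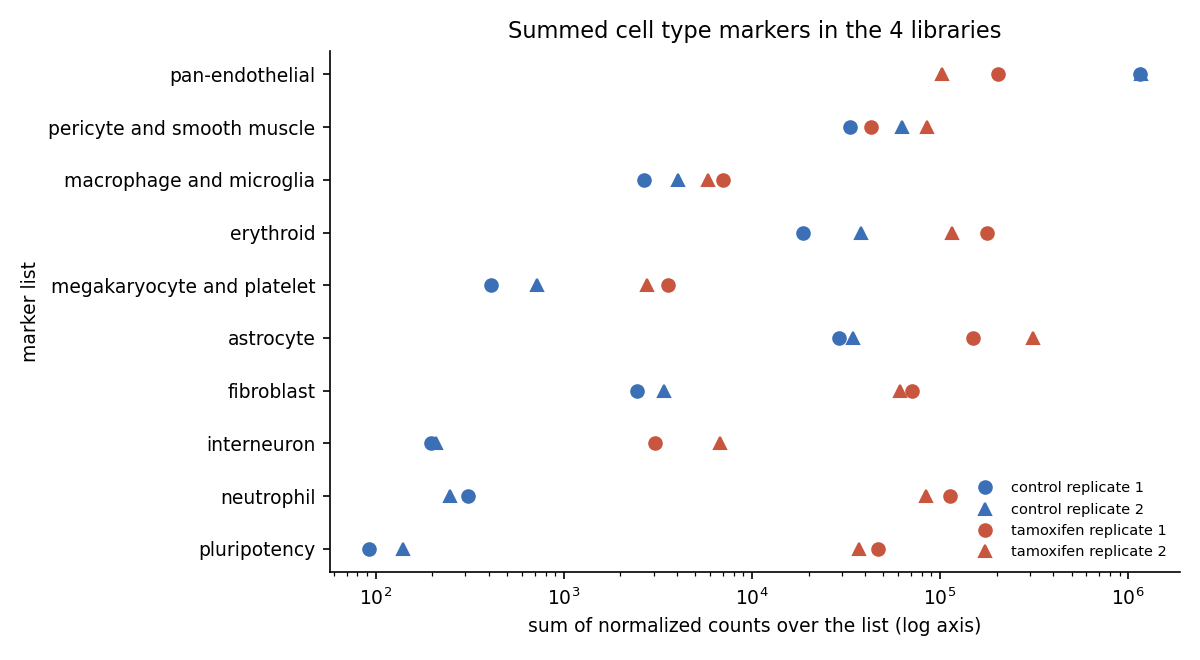
Sums of normalized counts over 10 marker lists (log axis) in the control (blue) and tamoxifen (red) libraries, with circles for replicate 1 and triangles for replicate 2. The pan-endothelial sum is lower in both tamoxifen libraries, whereas the neutrophil sum goes from 308 and 248 to 113408 and 84507 and the fibroblast sum from 2448 and 3397 to 71242 and 61409.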

How the data were processed

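Reads of 2 control and 2 tamoxifen libraries were aligned by the authors with STAR 2.7.10a to GRCm39 and normalized with DESeq2 1.36.0, with low-count genes left out. The annotation release, strand setting and low-count limit are not given in the sources used here. Per gene, the deposited signal is a normalized read count, and 100% of values were whole reads (tolerance 0.1 read) over 1 factor per library. Columns named C were read as control and columns named A as tamoxifen, although no label holds the letter A.

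Values were tested on log2(normalized count + 1) with limma 3.58.1 (mean-variance trend) in R 4.3.3, with Benjamini-Hochberg adjustment over all genes with a mean of at least 10. The whole-read counts recovered from the deposited values were also tested with edgeR 4.0.16 and DESeq2 1.42.0. The relative fit subtracted each library's mean log2 level of 12 pan-endothelial genes before the same test. The limma fit on normalized counts, edgeR and DESeq2 were tested on simulated data with far fewer changed genes than were called here. The relative fit was not tested in this way. Gene locations and transcript lengths came from GENCODE M39. Summaries were made in Python 3.11.15.

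The settings varied were the pseudocount (0.5 or 5), the filter (none, or a mean of 100), the trend (none), a block for the replicate number, the omission of each library, equal totals, quantile normalization, the 2 count models, other endothelial references and the adjusted p alone. Named were all members, Mgp, the binding partners, and from other lists genes among the 2 highest means, the largest called rise and the largest called fall. The members and lists were chosen with earlier results of these data known. Intervals and floors cover counting error or the spread between libraries only.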

Additional observations from a re-analysis of the deposited data

How the results depend on the processing

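The number of members called was 6, between 5 and 8 with 1 library left out, 8 with the replicate number as a block and 6 in the other alternatives. The relative fit called 7 members, between 2 and 8 with 1 library left out, 6 with the block and between 6 and 8 otherwise. Over all genes 9151 were called, 5934 with the filter at a mean of 100, where fewer genes were tested and Sele was left out, and between 4147 and 9700 with 1 library left out. Leaving out tamoxifen library 1 gave 5024 and tamoxifen library 2 gave 4147. A fit that leaves out a library has an arm of 1, which is assumed to vary like the other group.

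Scaling moved the median log2 fold change of all genes from 0.05 to 0.52 under equal totals and to -0.20 under quantile normalization. Of the genes called, 5867 were higher and 3284 lower, against 7206 and 1838 under equal totals and 4738 and 5275 under quantile normalization. Signs turned under equal totals for Nr2f2 (0.354), Sele (0.42), Mgp (0.0786), Il1rap (0.44) and Glg1 (0.37), and under quantile normalization for Nr2f2 (0.0233), Ackr1 (-0.21), Selp (-0.0187) and Glg1 (0.56). Sele also turned with DESeq2 (0.11) and edgeR (0.0694). With 1 library left out, signs differed for Sele (-0.85 to 0.77, positive without control library 2 or tamoxifen library 2), Il1a (-1.36 to 0.11) and Il1rap (-0.13 to 0.0677). None of the values whose sign turned had been called, and the cause was not tested.

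Same-numbered libraries did not deviate together (correlation of deviations 0.03 over 20485 genes), so the numbers were not taken as pairs. The replicate block added Ackr1 (adjusted p = 0.0193) and Selp (adjusted p = 0.0481) to the members called, removed Ephb4 from those of the relative fit (adjusted p = 0.0578), and gave 9525 called genes. Sele, at 19 to 59 reads per library, was called in none of its 14 alternatives.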
